A study of Mus musculus with 12 samples.

Results

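Wild-type ER-HoxB8 myeloid progenitors were compared at 36 and 96 h after withdrawal of E2, the later of the 2 steps sampled during their maturation into neutrophil-like cells. The step rests on 4 of the 12 RNA-seq libraries of the series, 2 at each time, and on 11516 of 23309 listed genes, those with at least 1 FPKM (fragments mapped per length of transcript and per library size) in at least 2 of the 12 libraries. The cells are mouse c-Kit+ bone marrow cells made to proliferate as progenitors by a fusion of the estrogen receptor hormone-binding domain with HoxB8, kept in IL-3 and E2 (estradiol). Every group carried this fusion, and each was harvested at 0, 36 or 96 h after E2 was taken away. HMGN1-OE cells, the other genotype of the series, also carried a human transgene for HMGN1, a nucleosome-binding protein. They serve here for the comparison of the same step, and their libraries also enter the gene filter and the spread of the fit. A cell line of this kind holds no marrow niche, and the fusion gene itself was present at every time. The labels call the samples myeloid cells. The study calls the libraries of a group biological duplicates, and the labels do not name separate cultures. The p-values therefore rest on the spread between libraries of these groups. On the deposited scale this spread, and the SE given with ±, come from a trend over all genes and not from the gene's own values.

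HoxB8 fused to the estrogen receptor is active while E2 is present and holds myeloid progenitors in a self-renewing state. When E2 is withdrawn, such cells mature. In bone marrow granulopoiesis, proteases of the primary (azurophil) granules are made by promyelocytes. The contents of secondary and tertiary granules are made by myelocytes and metamyelocytes, and the receptors and adhesion molecules of the mature neutrophil last. A mature neutrophil has a small, segmented nucleus, few ribosomes and mitochondria, and a store of antimicrobial proteins made beforehand.

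The authors took RNA from equal numbers of counted cells, added ERCC synthetic RNAs and scaled the values to them. The deposited FPKM are thus meant to follow RNA per cell and not the share of a library. Per the study's methods the ERCC RNAs were added to the RNA samples, so differences in the recovery of RNA from the cells were not controlled. In each of the 12 libraries the level of 30 ERCC RNAs, those averaging over 1 FPKM, was between -0.0354 and 0.0286 (log2) of the common level, which the normalization sets. The number of reads per library cannot be recovered from these values, and no counting error can be given. Unexpressed genes were listed near 0.1 FPKM and not at 0, and isolated values at or below that level in genes that were otherwise high may be failed estimates. Genes listed under 0.2 FPKM in 1 library of a time and above 20 FPKM in the other numbered 29 at 36 h, 26 of them with names of small RNAs, and 12 at 96 h, 10 of them small RNAs. S100a9 was the clearest case, with 0.0511 FPKM in the first library of 96 h and 26500 FPKM in the second. "First" and "second" follow the order of the deposited columns throughout, which is not tied to the replicate numbers of the samples.

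The mRNA level on the spike-in scale was lower at 96 h than at 36 h in both libraries. The summed FPKM was 1229588 and 1442573 in the libraries of 36 h, and 449750 and 228955 in those of 96 h. The median tested gene stood at 24.8 and 30.3 FPKM at 36 h against 6.92 and 3.06 FPKM at 96 h, and the genes at or above 1 FPKM numbered 11019 and 11086 against 9856 and 8651. The libraries of the 2 times did not overlap in any of these measures, and the second library of 96 h was the lowest in each. On the log2(FPKM + 1) scale the median change over all tested genes was -2.21, a 4.63-fold drop, and the 4 comparisons of single libraries gave -1.65, -1.93, -2.51 and -2.80. In bulk samples, fewer cells of a type and less RNA per cell cannot be told apart, and this holds for each gene below. The pseudocount of 1 makes this scale understate the changes of genes with low values.

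Because nearly every gene moved with this common drop, each change is given on a pair of scales. On the deposited scale, which keeps the spike-in normalization, "rose" and "fell" refer to the spike-in-scaled level, taken as a stand-in for the level per cell. On the median-centred scale each library was first multiplied by a factor that makes the median FPKM of the tested genes equal, and the words "relative to the median gene" mark that scale. Calls are those of limma at a Benjamini-Hochberg adjusted p under 0.05 over the 11516 genes. On the deposited scale 363 genes rose (3.15% of those tested) and 9940 fell (86.3%). Relative to the median gene, 8068 genes (70.1%) were called, of which 3646 rose (31.7%) and 4422 fell (38.4%), and subtracting each library's median on the log scale in place of a factor gave 4402 and 3880. The percentages in each direction are the background against which each list below is to be read. Both libraries of 96 h stood above both of 36 h in 3.6% of the genes and below both in 90.4%, and after centring in 37.5 and 45.0%. Of the genes that rose relative to the median gene, 355 also rose on the deposited scale, 1023 were not called there and 2268 fell there. Most of them thus fell on the deposited scale but less than the median gene did. All 4422 genes that fell relative to the median gene also fell on the deposited scale. The middle 50% of the genes changed by between -2.95 and -1.41 (log2) on the deposited scale. In this design an exact permutation test of 1 gene with 2 libraries against 2 has 3 splits and cannot go below p = 0.33, so the calls rest on the fit across genes, and on the deposited scale limma took each gene's spread from the trend alone.

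**Figure D1:**
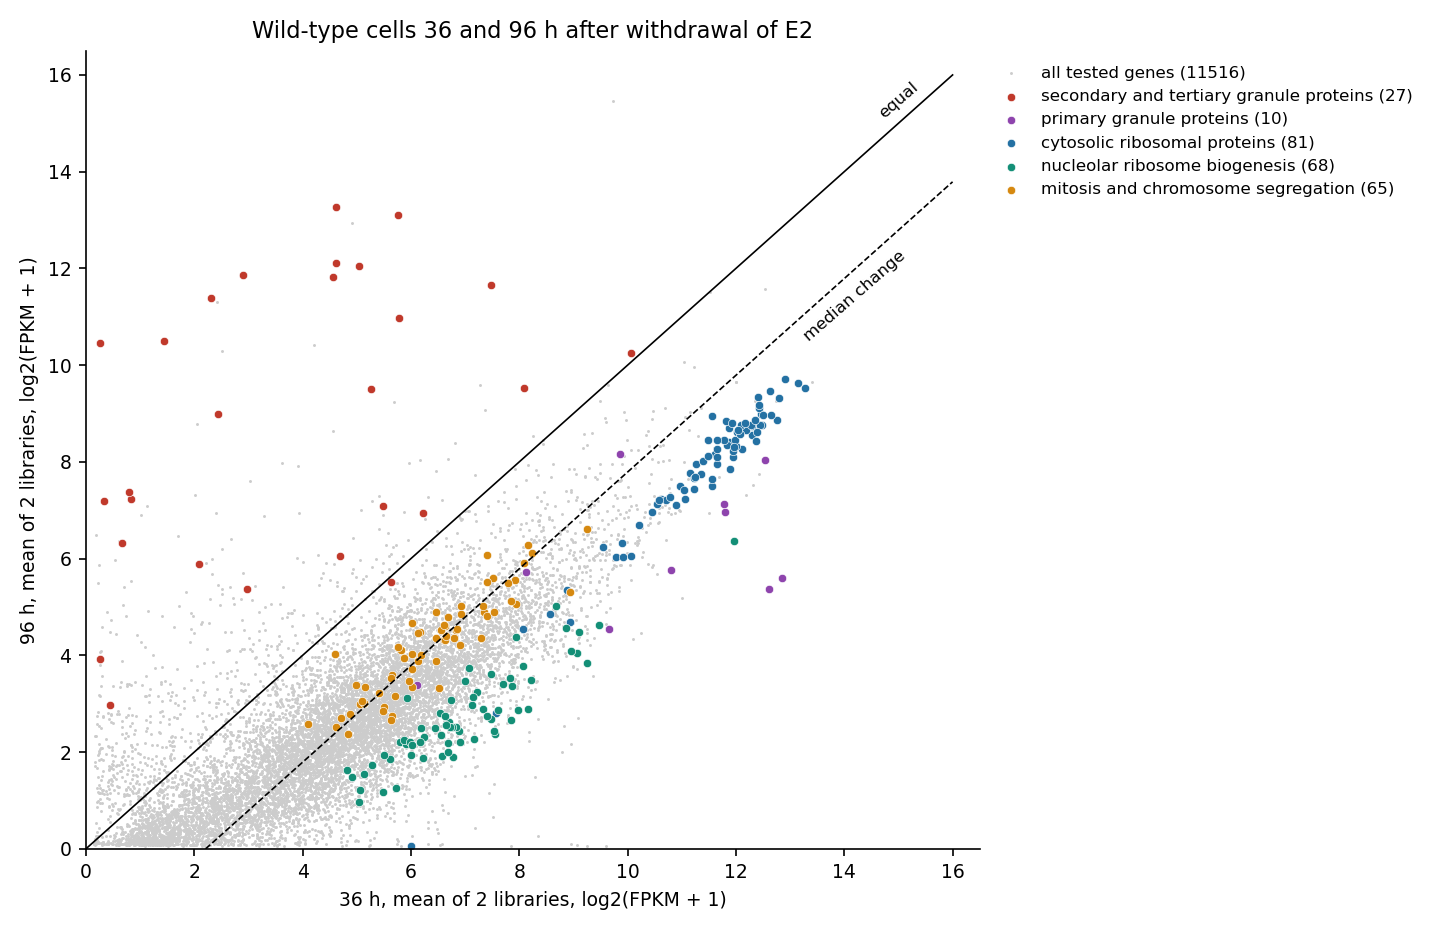
Mean log2(FPKM + 1) of the 2 wild-type libraries at 36 h (x axis) and at 96 h (y axis) for 11516 genes in grey, with 5 gene lists in colour, the line of equal level (solid) and the median change of -2.21 (dashed). Nearly all genes lie below the solid line; 26 of the 27 secondary and tertiary granule genes lie above it, whereas ribosomal and nucleolar genes lie below the dashed line.

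The largest rises belonged to the secondary and tertiary granules and to the stefin A family. Stfa3, a stefin A cysteine protease inhibitor, went from 0.186 and 0.219 FPKM at 36 h to 1630 and 1210 FPKM at 96 h. Ltf, the iron-binding lactoferrin of the secondary granules, went from 1.46 and 1.97 FPKM to 2040 and 1030 FPKM. Camp, the cathelicidin antimicrobial peptide, went from 28.1 and 19.5 FPKM to 7470 and 2610 FPKM. In each of these genes both libraries of 96 h were far above both of 36 h. The changes in log2(FPKM + 1) were 10.19 ± 0.53 for Stfa3, 9.07 ± 0.54 for Ltf and 7.50 ± 0.58 for Camp (SE, n = 2 libraries against 2), and for Stfa3 and Ltf they were 11.83 and 11.15 relative to the median gene (limma, Benjamini-Hochberg adjusted p = 3.35e-06 and 4.45e-06). Leaving out genes with placeholder or small RNA names, the 10 largest rises were the same 10 genes on both scales, namely Stfa1, Stfa2, Stfa2l1, Stfa3, BC100530 and BC117090, which are stefin A family genes, and Ltf, Camp, Ngp and Chi3l3.

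Neutrophilic granule protein, Ngp, rose from 68.3 and 41.1 FPKM to 13800 and 5680 FPKM. BC100530 rose from 21.3 and 25.8 FPKM to 15200 and 6380 FPKM, and only S100a8 and, in the second library, S100a9 stood above it at 96 h. Chi3l3, a secreted chitinase-like lectin also known as Ym1, rose from 64.5 and 15.4 FPKM to 6440 and 2770 FPKM. In all 10 genes the first library of 96 h was the higher. Stfa2 rose by 9.07, Stfa2l1 by 8.98 and Stfa1 by 7.27 in log2(FPKM + 1). The genes of this family are copies of similar sequence, as are Chi3l3 and Chi3l4, and how reads were divided between the copies is uncertain. The values of single members are thus less certain than that of the family.

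The list of secondary and tertiary granule genes had 28 members, and 5 of its tested genes, Stfa1, Stfa2, Stfa2l1, Stfa3 and BC100530, code for stefins and not for granule proteins. The rest still include genes of other neutrophil proteins, such as the enzyme Padi4 and the receptor Ltb4r1. Of the 28, 27 passed the filter, 24 rose and 0 fell on the deposited scale, and all 27 rose relative to the median gene. Their median change was 5.66 on the deposited scale against -2.21 over all genes, and 7.74 against -0.10 relative to the median gene. Without the stefins, 19 of 22 rose and 0 fell on the deposited scale and all 22 rose relative to the median gene, with medians of 4.22 and 6.76. The 3 not called on the deposited scale were Mmp8, the neutrophil collagenase, with 58.2 and 40.7 FPKM against 33.4 and 60.4 FPKM, Hp, haptoglobin, with 112 and 48.9 FPKM against 179 and 83.7 FPKM, and Anxa1, with 1350 and 851 FPKM against 1860 and 805 FPKM. The list thus held both genes that were almost silent at 36 h and genes that were already high. Among the former, Cd177, a surface glycoprotein of neutrophils, went from 0.878 and 0.684 FPKM to 244 and 91.7 FPKM. Retnlg, a resistin-like peptide, went from 0.314 and 0.214 FPKM to 139 and 151 FPKM. Mmp9, the gelatinase of the tertiary granules, went from 0.179 and 0.201 FPKM to 9.25 and 21.7 FPKM. Lcn2, the siderophore-binding lipocalin, started higher, at 80.9 and 36 FPKM, and reached 2770 and 1480 FPKM. Lyz2, lysozyme, rose from 368 and 84.3 FPKM to 3300 and 3160 FPKM, and Padi4, the histone-citrullinating enzyme of neutrophils, from 3.1 and 3.43 FPKM to 78.4 and 43.7 FPKM.

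Several of these genes had been higher at 0 h than at 36 h in wild-type cells. Stfa3 stood at 12.4 and 6.85 FPKM at 0 h, Ltf at 15.9 and 7.19 FPKM, and Camp at 84.6 and 31.1 FPKM. From 0 to 36 h, 4 of the 27 genes, Ltf, Stfa2l1, Stfa3 and BC100530, fell and 0 rose on the deposited scale, where 0.261% of all genes fell and 0.356% rose. None of these 4 was called from 0 to 36 h relative to the median gene (limma, Benjamini-Hochberg adjusted p = 1.0 for each). The difference between the late and the early change is tested below.

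**Figure D2:**
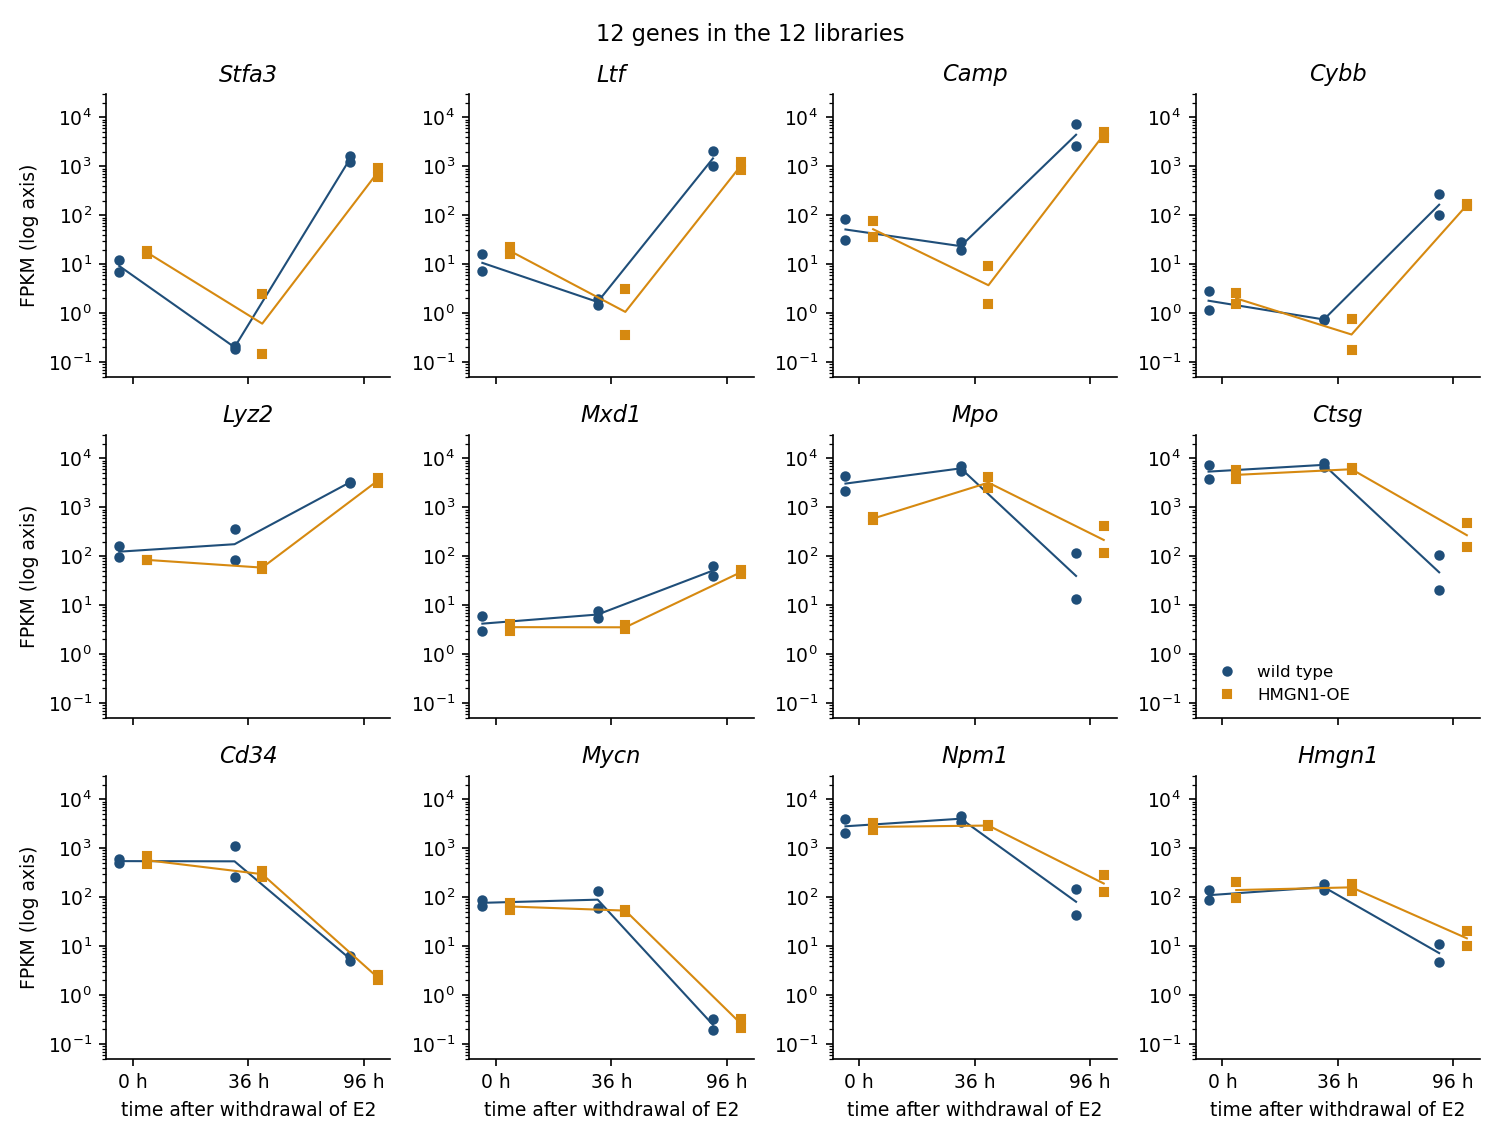
FPKM (log axis) of 12 genes at 0, 36 and 96 h after withdrawal of E2; each point is 1 library, circles are wild type, squares are HMGN1-OE, and lines join the means of the 2 libraries on the log axis. Granule genes, Cybb, Lyz2 and Mxd1 are highest at 96 h in both genotypes, and Mpo, Ctsg, Cd34, Mycn, Npm1 and Hmgn1 are lowest there. The Hmgn1 values are listed for the mouse gene, and how far they include the human transgene is not known.

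The upstream sequences of the leading genes are given here because the genes moved together, and because the stefin A genes are copies of each other. Promoters are from RefSeq on GRCm38.p6, a build other than that of the deposited values, as the 250 bases before the start site, 5′ to 3′ on the strand of the gene. Capitals mark matches to the C/EBP core TTGCNNAA on either strand. C/EBP factors are the main activators of granule genes, and C/EBPε is required for secondary granules.
Stfa1 (chr16:36276898-36277147, plus strand): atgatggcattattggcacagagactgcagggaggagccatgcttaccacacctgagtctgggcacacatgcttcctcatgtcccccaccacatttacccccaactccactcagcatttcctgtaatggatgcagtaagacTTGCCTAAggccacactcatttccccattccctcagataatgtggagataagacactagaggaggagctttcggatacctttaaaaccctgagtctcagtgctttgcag
Stfa3 (chr16:36455393-36455642, minus strand): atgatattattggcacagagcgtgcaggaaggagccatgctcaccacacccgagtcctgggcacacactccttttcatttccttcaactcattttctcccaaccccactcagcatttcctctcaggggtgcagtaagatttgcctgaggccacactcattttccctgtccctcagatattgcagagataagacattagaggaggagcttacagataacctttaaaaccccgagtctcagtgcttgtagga
Ngp (chr9:110419558-110419807, plus strand): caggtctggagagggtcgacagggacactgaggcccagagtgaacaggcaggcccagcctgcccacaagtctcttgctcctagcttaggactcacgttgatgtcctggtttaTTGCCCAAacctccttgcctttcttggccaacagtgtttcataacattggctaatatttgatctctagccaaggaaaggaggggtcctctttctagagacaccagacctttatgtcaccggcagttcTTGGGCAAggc
Lcn2 (chr2:32387740-32387989, minus strand): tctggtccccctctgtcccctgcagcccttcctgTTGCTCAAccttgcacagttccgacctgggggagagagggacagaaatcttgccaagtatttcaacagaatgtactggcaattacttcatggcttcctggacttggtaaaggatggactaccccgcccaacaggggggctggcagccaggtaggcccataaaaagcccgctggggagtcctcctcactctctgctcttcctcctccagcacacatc
The Stfa1 promoter held 1 match, TTGCCTAA, 109 bases before the start site, that of Ngp 2 matches, the first of them 138 bases before it and the second nearer to it, and that of Lcn2 1 match, TTGCTCAA, 216 bases before it. In the promoters of Stfa2, Stfa2l1 and Stfa3 these letters were not found in the window. Over the 300 bases held for each promoter, which include 50 after the start site, the stefin A promoters were 79.3 to 90.5% identical with each other, Stfa2 and Stfa2l1 being closest, and 49.1 to 52.6% identical with that of Ngp. The C/EBP core was found in 40.9% of the 22 genes of the secondary and tertiary granule list, stefins included, with a promoter in the table, in 17.6% of the 256 genes that rose on the deposited scale, in 8.39% of the 8533 tested genes with a promoter and in 10.8% of all 27025 promoters. A match is a description of these letters and no evidence of binding.

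Primary granule genes moved the opposite way. Ctsg, cathepsin G, was at 6780 and 7980 FPKM at 36 h, among the most abundant transcripts of the cells, and at 107 and 20.6 FPKM at 96 h. Mpo, myeloperoxidase, went from 7070 and 5510 FPKM to 116 and 13.5 FPKM. Elane, neutrophil elastase, went from 2860 and 1110 FPKM to 129 and 21.7 FPKM. The libraries of the 2 times were far apart in all 3 genes, and the second library of 96 h was the lower each time. Ctsg changed by -7.25 ± 0.63 and Mpo by -7.24 ± 0.62 in log2(FPKM + 1) (SE, n = 2 against 2). These were the largest falls on the deposited scale under the naming rule given below, which leaves out placeholder and small RNA names. Relative to the median gene both changed by -4.71 (limma, Benjamini-Hochberg adjusted p = 3.17e-05 for Ctsg and 0.000282 for Mpo) and Elane by -2.49 (0.00723).

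All 10 primary granule genes on the list fell on the deposited scale, with a median of -4.73, and relative to the median gene 7 fell and 1 rose, with a median of -2.17. Prtn3, proteinase 3, was at 4650 and 2700 FPKM at 36 h and at 299 and 51.5 FPKM at 96 h. Ms4a3, a membrane protein of the granulocyte and monocyte progenitor, was at 3780 and 3240 FPKM and then at 286 and 67.1 FPKM. Srgn, serglycin, the proteoglycan to which granule proteases bind, was at 7310 and 4840 FPKM and then at 348 and 198 FPKM. Not all members fell as far. Serpinb1a, the cytosolic inhibitor of elastase and cathepsin G, was at 995 and 870 FPKM and then at 488 and 166 FPKM, which is a fall on the deposited scale and a rise of 0.86 relative to the median gene. Ctsc, the protease that activates the granule proteases, and Prss57 changed by 0.16 and -0.29 relative to the median gene, and neither was called on that scale.

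Together the 10 primary granule genes held 2.81 and 1.91% of the summed FPKM at 36 h and 0.423 and 0.259% at 96 h. The secondary and tertiary granule list held 0.219 and 0.106% at 36 h and 16.4 and 14.9% at 96 h, or 0.214 and 0.102% and then 9.34 and 8.59% without its stefin A genes. The S100 list held 0.270 and 0.173% at 36 h and 16 and 24.9% at 96 h, the larger share belonging to the library in which S100a9 was at 26500 FPKM. The 10 most abundant genes of a library held 6.65 and 6.97% of the sum at 36 h, and 32.2 and 37.9% at 96 h. At 36 h these included genes of translation, Eef1a1, Rplp1 and Rpl41, and Ctsg in both libraries, with Mpo and Srgn in the first. At 96 h they included S100a8, BC100530, Ngp, Gm5483, Camp, Chi3l3 and Stfa2l1 in both libraries, with S100a9, Lyz2 and Ftl1 in the second.

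**Figure D3:**
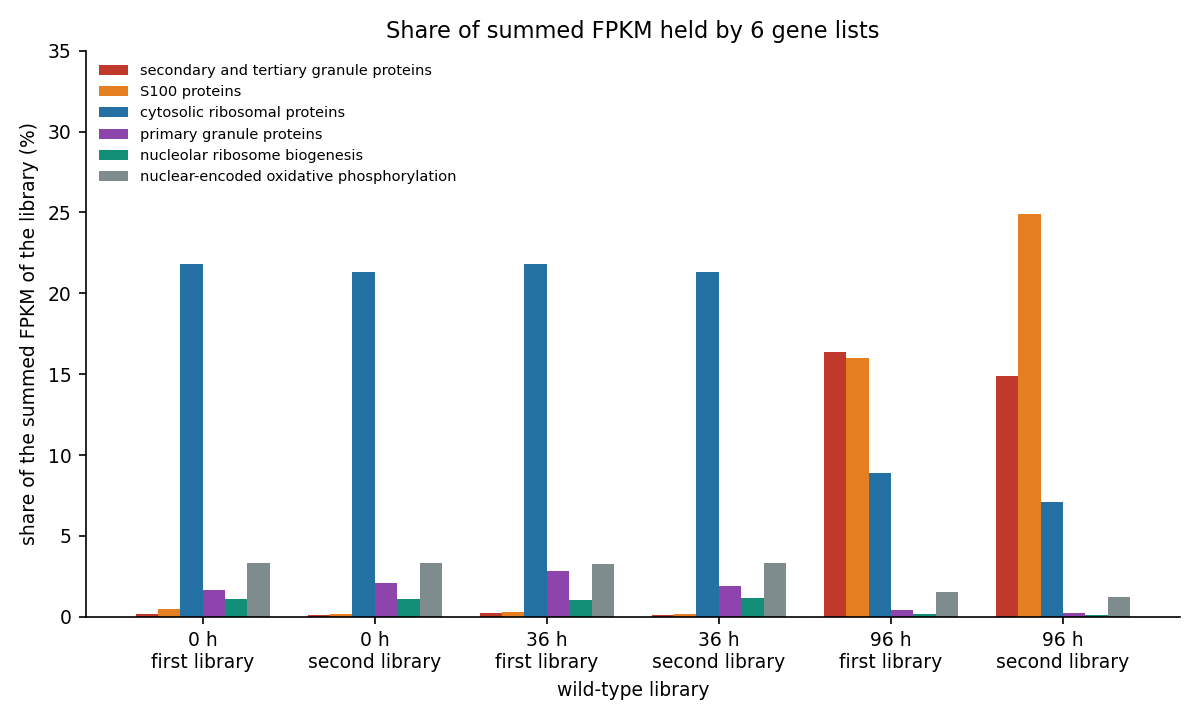
Share of the summed FPKM of each wild-type library (%) held by 6 gene lists at 0, 36 and 96 h; each bar is 1 list in 1 library. Ribosomal protein genes hold 21.3 to 21.8% at 0 and 36 h and 8.87 and 7.07% at 96 h, where secondary and tertiary granule and S100 genes together hold the larger share.

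S100a8, a subunit of the calcium-binding protein calprotectin of the neutrophil cytosol, rose from 1350 and 533 FPKM to 69900 and 29400 FPKM, and was the most abundant gene of both libraries of 96 h. Its change was 5.74 ± 0.63 in log2(FPKM + 1), and 8.31 relative to the median gene (limma, Benjamini-Hochberg adjusted p = 3.46e-05). S100a9, the partner subunit, was at 440 and 276 FPKM at 36 h and at 0.0511 and 26500 FPKM at 96 h, and was called on neither scale. Without the first library of 96 h its change was 6.25 on the deposited scale, and it was -7.25 relative to the median gene without the second, so no direction can be given for S100a9 in wild-type cells from the 4 libraries. S100a6 rose from 60.3 and 450 FPKM to 828 and 351 FPKM in the fit, although the second library of 36 h was above the second of 96 h. Of the 9 tested S100 genes 2 rose and 4 fell on the deposited scale, and 7 rose relative to the median gene.

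The genes of the phagocyte NADPH oxidase, which makes superoxide, divided into 1 that appeared at 96 h and others that had been high before. Cybb, the catalytic gp91phox subunit, was at 0.725 and 0.765 FPKM at 36 h and at 270 and 100 FPKM at 96 h. Cyba, its membrane partner p22phox, was at 424 and 285 FPKM and then at 488 and 249 FPKM. Ncf1, the cytosolic organizer p47phox, was at 267 and 217 FPKM and then at 327 and 161 FPKM. The 2 times thus overlapped for Cyba and Ncf1 and were far apart for Cybb. Cybb rose by 6.57 ± 0.47 on the deposited scale, Cyba changed by 0.00 ± 0.60 and Ncf1 by -0.07 ± 0.59. A p above the threshold, as for Cyba and Ncf1, does not show that their level was the same. All 8 genes of the list rose relative to the median gene, with a median of 2.32, from 0.49 for the small GTPase Rac1 to 8.43 for Cybb. Rac1 was the 1 member that fell on the deposited scale.

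Receptors for chemoattractants rose in part. C5ar1, the receptor for the complement fragment C5a, went from 1.15 and 0.304 FPKM to 40.5 and 18.2 FPKM. Fpr2, a formyl peptide receptor, went from 0.208 and 0.178 FPKM to 18.6 and 13.4 FPKM. Cxcr2, the receptor for CXCL chemokines that draws neutrophils out of the marrow, went from 2.74 and 1.74 FPKM to 17.5 and 8.32 FPKM. In all 3 the libraries of 96 h lay above those of 36 h. Cxcr4, the receptor for the marrow retention signal CXCL12, was at 92.7 and 75.3 FPKM and then at 77.8 and 29.8 FPKM, and was not called on the deposited scale. S1pr1, a receptor for sphingosine 1-phosphate, was the only member of the 14 tested to fall there, while 6 rose. On the median-centred scale 12 rose and 0 fell, with a median of 2.20, while the median on the deposited scale was 0.225, and 1.04 without the first and -0.0516 without the second library of 36 h.

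Among 16 integrins and adhesion molecules 4 rose and 10 fell on the deposited scale, and 10 rose and 4 fell relative to the median gene. Itgam, the CD11b chain of the integrin Mac-1, rose from 26 and 7.43 FPKM to 302 and 190 FPKM, a change of 3.99 ± 0.52. Its partner chain Itgb2 rose from 98.7 and 76.2 FPKM to 291 and 172 FPKM. Itga4, the VLA-4 chain that binds progenitors to stroma, fell from 60.8 and 84.5 FPKM to 9.86 and 3.75 FPKM, and by 0.95 on the log2 scale relative to the median gene. Ceacam1 rose with Itgam, and Pecam1 fell with Itga4.

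Pattern recognition and Fc receptors rose in part. Of 25 tested, 10 rose and 5 fell on the deposited scale, and 22 rose and 0 fell relative to the median gene, with medians of 0.58 and 2.69, the first being -0.0968 without the second library of 36 h. Clec4n, the fungal receptor dectin-2, went from 1.95 and 0.653 FPKM to 14.4 and 59 FPKM. Tyrobp, the DAP12 adaptor that signals for many of these receptors, went from 286 and 82 FPKM to 962 and 621 FPKM. Tlr4, the receptor for lipopolysaccharide, was at 64.2 and 64.3 FPKM and then at 13.3 and 7.18 FPKM. It fell on the deposited scale and was not called relative to the median gene. Of 23 cytokine receptors 2 rose and 14 fell on the deposited scale, and 14 rose and 1 fell relative to the median gene. Il1r2, the decoy receptor for IL-1, rose from 4.49 and 3.63 FPKM to 89.2 and 43.6 FPKM. Csf3r, the G-CSF receptor, was at 20.8 and 16.2 FPKM and then at 34.2 and 23.7 FPKM, and its change of 0.61 on the deposited scale was not called, while it rose by 3.07 relative to the median gene. Flt3, the receptor of early progenitors, was the 1 that fell relative to the median gene. It was at 4.1 and 67 FPKM at 36 h and at 0.256 and 0.0462 FPKM at 96 h.

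Of 25 cytokines and feedback regulators of inflammation 10 rose and 7 fell on the deposited scale, and 22 rose and 2 fell relative to the median gene. The median on the deposited scale was 0.0731, and it was -0.287 without the first library of 96 h and 0.198 to 0.339 without any other. Cxcl2, a ligand of Cxcr2, went from 1.05 and 0.393 FPKM to 8.5 and 10.2 FPKM. Nfkbia, the inhibitor of NF-κB, went from 20.2 and 19.2 FPKM to 88.5 and 29.6 FPKM. Ccl6 went from 92.1 and 4.92 FPKM to 397 and 402 FPKM, a gene in which the libraries of 36 h differed strongly from each other. Ccl9 and the phosphatase gene Dusp2 were the 2 that fell relative to the median gene, by 1.59 and by 1.79 on the log2 scale. Ccl9 was at 515 and 919 FPKM and then at 38 and 38.4 FPKM.

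Of 28 genes of stem and progenitor identity tested, 24 fell and 0 rose on the deposited scale, a share close to the background there, and 16 fell and 0 rose relative to the median gene, with medians of -2.88 and -1.0. With the median subtracted on the log scale 12 fell and 5 rose, with a median of -0.558. Cd34, a sialomucin of hematopoietic progenitors, was at 264 and 1110 FPKM at 36 h and at 6.18 and 4.99 FPKM at 96 h. Mycn was at 60 and 132 FPKM and then at 0.322 and 0.19 FPKM. Myb, a transcription factor required for progenitors, was at 476 and 546 FPKM and then at 23.4 and 6.57 FPKM. The libraries of the 2 times were far apart in all 3. Relative to the median gene the changes were -3.94, -4.67 and -2.75 (limma, Benjamini-Hochberg adjusted p = 0.000223, 4.57e-06 and 1.07e-05). Sox4 was at 13.1 and 48.2 FPKM and then at 0.126 and 0.0689 FPKM, which is the floor of the values. Kit, the stem cell factor receptor by which the cells had been selected, fell from 71.1 and 63.3 FPKM to 12.3 and 5.23 FPKM on the deposited scale, and by less than could be called relative to the median gene.

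Several of the largest falls, placeholder and small RNA names left out, were in genes outside these lists. Cnn3, calponin 3, was at 113 and 291 FPKM and then at 1.18 and 0.134 FPKM. Thy1 was at 327 and 749 FPKM and then at 4.87 and 2.48 FPKM. Igfbp7 was at 265 and 738 FPKM and then at 3.76 and 2.35 FPKM. In these, as in Nrgn, Gbp4, Mmp13, Car2 and Cd34, which complete the 10 largest falls on the deposited scale with Ctsg and Mpo, the second library of 36 h was more than 2 times the first. The 10 largest falls relative to the median gene held Cnn3, Gbp4, Rpl26, Mpo, Ctsg, Nrgn, Mycn, Igll1, Igfbp7 and Thy1. Rpl26 was at 28 and 142 FPKM and then at 0.0577 and 0.0285 FPKM, and was at 224 and 18.2 FPKM at 0 h, and the cause of this spread was not tested. In all, 798 genes went from a mean of at least 5 FPKM at 36 h to a mean under 1 FPKM at 96 h, whereas 118 genes that rose on the deposited scale rose by at least 10-fold in mean FPKM.

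The transcription factors of the myeloid lineage were spread around the level they had at 36 h. Of 40 tested, 8 rose and 15 fell on the deposited scale, with a median of -0.44 (-0.901 without the first library of 96 h, -0.137 without the second and -0.699 without the second of 36 h), and 30 rose and 5 fell relative to the median gene, with a median of 2.04. Cebpa, which acts at the entry to the granulocyte lineage, fell from 178 and 218 FPKM to 18.5 and 9.51 FPKM. Cebpe, which acts at the later stage, was at 95.4 and 102 FPKM and then at 134 and 42.7 FPKM. Spi1, PU.1, was at 217 and 134 FPKM and then at 173 and 90 FPKM. Cebpa thus fell on both scales, by 1.30 on the log2 scale relative to the median gene, while Cebpe and Spi1 rose by 2.17 and 2.11 there and were not called on the deposited scale. Gfi1, a transcriptional repressor that acts in the granulocyte lineage, fell from 186 and 143 FPKM to 16 and 4.84 FPKM. Klf2 rose from 3.82 and 4.4 FPKM to 17 and 10.7 FPKM and Rara, the retinoic acid receptor α, from 1.97 and 0.42 FPKM to 9.95 and 8.93 FPKM.

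In the Myc and Mxd network, in which Myc and Mxd proteins compete for the partner Max at E-boxes, the activators and 1 antagonist moved in opposite directions. Myc went from 238 and 301 FPKM to 15.2 and 3.9 FPKM. Mxd1 went from 7.51 and 5.55 FPKM to 64.6 and 40.4 FPKM. Max was at 103 and 130 FPKM and then at 26.2 and 13 FPKM. On the deposited scale Myc changed by -4.92 ± 0.56, Mxd1 by 2.80 ± 0.48 and Max by -2.58 ± 0.55. Relative to the median gene Myc changed by -2.49 (limma, Benjamini-Hochberg adjusted p = 3.32e-05), Mxd1 by 5.15 (2.87e-06) and Max by -0.07 (0.534). Mxd1 was the only one of 11 members that rose on the deposited scale.

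The genes at the centre of the study are given here as measured. Hmgn1 fell from 141 and 183 FPKM to 11.1 and 4.71 FPKM, by 4.28 on the log2 scale and by 1.85 relative to the median gene (limma, Benjamini-Hochberg adjusted p = 0.000274). Hmgn2, its closest relative on the list, was at 976 and 970 FPKM at 36 h and at 919 and 297 FPKM at 96 h, and it rose by 1.68 relative to the median gene. Hmga2, a chromatin protein of progenitors, was at 7.41 and 42.2 FPKM and then at 0.117 and 0.0568 FPKM. Of the 9 HMGN, HMGB and HMGA genes tested, 8 fell on the deposited scale, and 6 fell and 2 rose, Hmgn2 and Hmgb2, relative to the median gene. Hoxb8, which here may include reads of the fusion gene, was at 123 and 116 FPKM and then at 47.5 and 26.8 FPKM, a fall on the deposited scale and a rise of 0.82 relative to the median gene. Hoxa9 was at 0.164 and 7.06 FPKM and then at 0.828 and 0.0341 FPKM, and Hoxa7 at 0.13 and 3.28 FPKM and then at 0.167 and 0.0467 FPKM. Both Hoxa genes were called as lower on the deposited scale, although the libraries of the 2 times overlapped, and Hoxa9 changed by 0.24 without the second library of 36 h.

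The cell cycle genes did not move as a block. Of 56 DNA replication genes 56 fell on the deposited scale, with a median of -3.08, and 40 fell and 1 rose relative to the median gene, with a median of -0.59. Of 65 genes of mitosis and chromosome segregation 64 fell on the deposited scale, with a median of -2.16, close to that of all genes. Without the first library of 96 h this median was -2.96 and that of all genes -2.65, and without the second -1.39 and -1.78. Relative to the median gene 26 rose and 4 fell, with a median of 0.26. With the median subtracted on the log scale the mitotic genes gave 15 and 6, with a median of 0.16, and the median of 0.26 was 0.0414 without the first library of 96 h and 0.49 without the second. Mcm2, a subunit of the replicative helicase, was at 169 and 176 FPKM and then at 28.2 and 7.93 FPKM. Pold2, a subunit of DNA polymerase δ, was at 119 and 160 FPKM and then at 6.73 and 2.17 FPKM. Mki67, the proliferation marker Ki-67, was at 158 and 179 FPKM and then at 119 and 36.9 FPKM. Pold2 therefore fell by 2.49 on the log2 scale relative to the median gene (limma, Benjamini-Hochberg adjusted p = 1.29e-05), while Mki67 rose by 1.22 (0.00015). Nusap1, which binds spindle microtubules, and Cdc25b, the phosphatase that starts mitosis, rose by 1.16 and 1.89 relative to the median gene, and Cks1b, a CDK subunit, fell by 1.08 there. The 4 comparisons of single libraries gave a list median of -0.01 to 0.56 for mitosis, which straddles 0, and of -0.86 to -0.34 for DNA replication.

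The G1 regulators moved in both directions. Cdk4 was at 662 and 910 FPKM and then at 51.3 and 16.1 FPKM, and Cdk6 at 97 and 160 FPKM and then at 6.23 and 2.27 FPKM. Ccnd2, cyclin D2, was at 59.9 and 65.2 FPKM and then at 3.44 and 1.8 FPKM, and Ccnd3, cyclin D3, at 122 and 117 FPKM and then at 166 and 77.2 FPKM. Relative to the median gene Cdk4, Cdk6 and Ccnd2 fell by 2.17, by 2.37 and by 1.93 on the log2 scale, and Ccnd3 rose by 2.47. The inhibitor Cdkn2d, p19INK4d, was at 24.6 and 23.3 FPKM and then at 66.1 and 26.6 FPKM, and rose by 3.27 relative to the median gene. E2f2 was the 1 member of 23 that rose on the deposited scale, from 1.67 and 1.22 FPKM to 20.8 and 7.11 FPKM. Cdkn2a and Cdkn2c, also INK4 inhibitors, differed between the libraries of 36 h, at 82 and 2.84 FPKM and at 4.04 and 159 FPKM, and neither was called relative to the median gene.

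The promoters of a replication gene and of a mitotic gene are shown with an element known from each kind of gene. Capitals mark matches to the E2F element TTTNGCGC in that of Mcm5 and to the cell cycle homology region TTTGAA in that of Cdc20, each on either strand.
Mcm5 (chr8:75109259-75109508, plus strand): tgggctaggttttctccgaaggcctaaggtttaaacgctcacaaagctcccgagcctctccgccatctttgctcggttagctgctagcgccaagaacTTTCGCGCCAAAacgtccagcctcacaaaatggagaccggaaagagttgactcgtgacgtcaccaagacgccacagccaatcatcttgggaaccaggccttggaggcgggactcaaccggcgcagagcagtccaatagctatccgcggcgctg
Cdc20 (chr4:118437344-118437593, minus strand): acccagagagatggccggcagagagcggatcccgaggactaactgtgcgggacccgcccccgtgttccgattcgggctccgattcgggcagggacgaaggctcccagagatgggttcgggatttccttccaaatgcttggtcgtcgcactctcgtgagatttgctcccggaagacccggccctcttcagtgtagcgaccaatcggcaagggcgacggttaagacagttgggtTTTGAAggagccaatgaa
Mcm5 held 2 overlapping matches from 153 bases before the start site, and Cdc20 held 1 match 18 bases before it. Mcm5, another helicase subunit, was at 197 and 238 FPKM and then at 51.6 and 15.2 FPKM, and Cdc20, an activator of the anaphase-promoting complex, at 154 and 221 FPKM and then at 48.6 and 17 FPKM. Neither was called relative to the median gene. The letters TTTGAA were found in 68.5% of 54 mitotic promoters and CCAAT, the NF-Y element, in 74.1%, against 11.8 and 39.6% of the tested genes. CCAAT was as frequent in other lists, at 77.3% of 22 cholesterol and fatty acid synthesis promoters and 75.8% of 33 of the endoplasmic reticulum list. The E2F element was found in 19.1% of 47 replication promoters, against 2.71%. The shares were also counted over all genes called relative to the median gene, by direction. The E2F element was found in 2.08% of those that rose and 3.32% of those that fell, the C/EBP core in 8.94 and 8.14%, the E-box CACGTG in 10.3 and 11.6%, CCAAT in 38.4 and 40.8% and TTTGAA in 11.5 and 11.8%. These shares were not tested.

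By the median of the list, nucleolar genes fell further than any other list with more than 10 tested genes. All 68 nucleolar genes of ribosome biogenesis fell on both scales, with medians of -4.21 on the deposited scale and -1.83 relative to the median gene, and the 4 comparisons of single libraries gave -2.04 to -1.67 for the second. Npm1, nucleophosmin, was at 3470 and 4640 FPKM at 36 h and at 150 and 43.4 FPKM at 96 h. Dkc1, the pseudouridine synthase dyskerin, was at 201 and 264 FPKM and then at 10.2 and 2.58 FPKM. Ddx52, a helicase of rRNA processing, had the smallest fall of the list, from 54.6 and 64.8 FPKM to 11.9 and 4.84 FPKM. Npm1 changed by -5.61 ± 0.62 on the deposited scale and by -3.05 relative to the median gene (limma, Benjamini-Hochberg adjusted p = 2.55e-05). All 81 cytosolic ribosomal protein genes fell on the deposited scale, with a median of -3.52, and 78 fell relative to the median gene, with a median of -0.95, the exceptions being Fau, Rps27a and Rpl34. Rpl3 was at 2770 and 3250 FPKM and then at 304 and 108 FPKM, and Rps9 at 5090 and 5800 FPKM and then at 986 and 422 FPKM. The ribosomal protein genes together held 21.8 and 21.3% of the summed FPKM at 36 h, and 8.87 and 7.07% at 96 h.

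Other large complexes fell together as well, each by less than the nucleolar genes. All 38 spliceosomal genes fell on the deposited scale and 35 relative to the median gene, with a median of -0.84 there. All 38 proteasome genes fell on the deposited scale and 35 relative to the median gene, with a median of -0.72. Of 77 nuclear genes of oxidative phosphorylation all fell on the deposited scale, and 65 fell and 2 rose relative to the median gene, with a median of -0.81. Of 43 genes of folding and secretion in the endoplasmic reticulum 42 fell on the deposited scale, and 36 fell and 3 rose relative to the median gene, with a median of -1.11. Calr, the chaperone calreticulin, was at 4390 and 4920 FPKM and then at 258 and 98 FPKM. Atp5b, the catalytic subunit of ATP synthase, was at 1650 and 2160 FPKM and then at 208 and 70.8 FPKM. Sf3b1, a splicing factor, was at 177 and 214 FPKM and then at 53.4 and 22.8 FPKM. Calr fell by 2.29 and Atp5b fell by 1.38 on the log2 scale relative to the median gene, whereas Sf3b1 changed by 0.10 there and was not called.

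**Figure D4:**
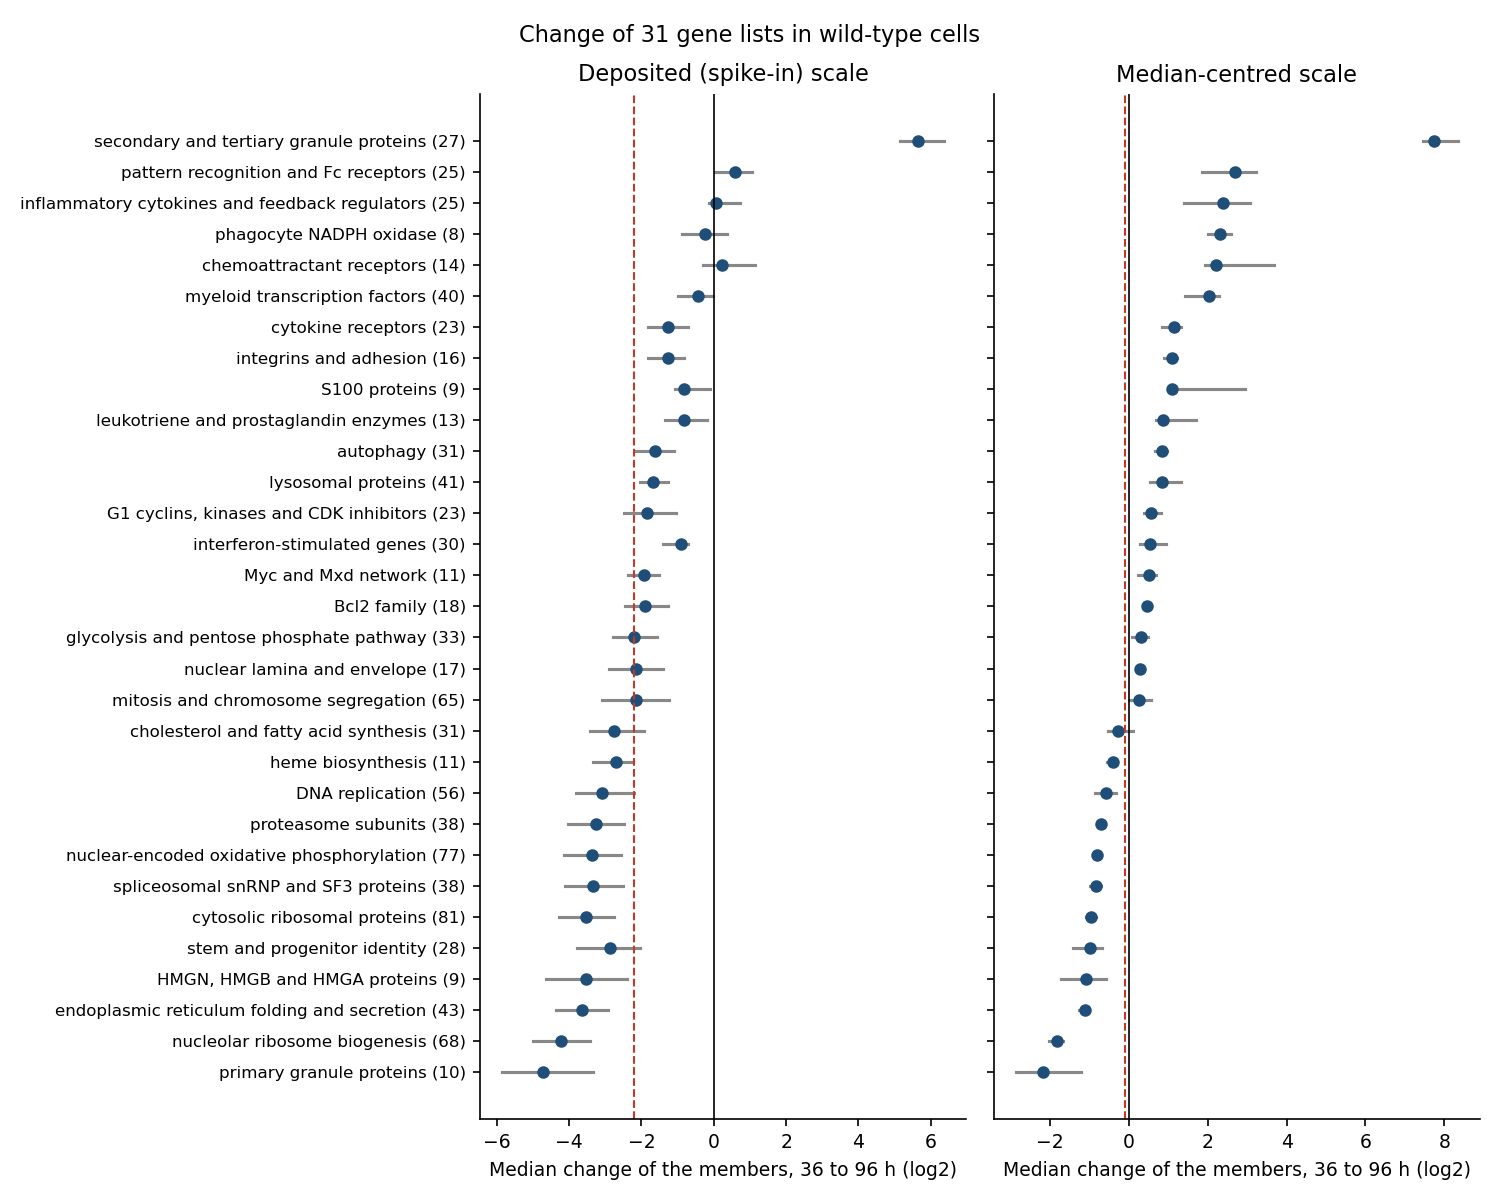
Median log2 change from 36 to 96 h of the tested members of 31 gene lists (number of members in brackets) on the deposited scale (left) and the median-centred scale (right); points are the fit, grey bars span the 4 comparisons of single libraries, and the dashed red line is the median of all genes. The secondary and tertiary granule list stands at 5.66 and 7.74, and the primary granule list at the other end at -4.73 and -2.17.

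Lysosomal and autophagy genes fell less than the median gene. Of 41 lysosomal genes 3 rose and 30 fell on the deposited scale, and 29 rose and 3 fell relative to the median gene, with a median of 0.84. Ctsh, cathepsin H, rose from 0.241 and 0.193 FPKM to 11.4 and 7.53 FPKM. Psap, prosaposin, was at 329 and 283 FPKM and then at 338 and 406 FPKM, and rose by 2.84 relative to the median gene. Gaa, the acid α-glucosidase, fell from 74.2 and 80.6 FPKM to 6.6 and 3.81 FPKM. Of 31 autophagy genes 0 rose and 23 fell on the deposited scale, and 22 rose and 4 fell relative to the median gene, with a median of 0.85. Tfeb, a transcription factor of lysosomal genes, was at 8.1 and 9.23 FPKM and then at 12 and 7.2 FPKM, and rose by 2.42 relative to the median gene.

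Glycolysis and pentose phosphate genes were divided, in shares not far from those of all tested genes. Of all genes 86.3% fell on the deposited scale, and 31.7% rose and 38.4% fell relative to the median gene. Of the 33 list genes tested, 2 rose and 28 fell on the deposited scale. Relative to the median gene 14 of them rose and 12 fell, with a median of 0.30. This median was 0.529 without the first library of 36 h, 0.133 without the second and 0.127 with the median subtracted on the log scale. Slc2a3, the glucose transporter GLUT3, rose from 15.8 and 26.6 FPKM to 78.3 and 44.2 FPKM, and Pfkfb4, which sets the level of an activator of glycolysis, from 7.58 and 5.04 FPKM to 22.3 and 11.6 FPKM. Slc16a1, the lactate transporter MCT1, fell from 112 and 173 FPKM to 3.39 and 0.899 FPKM. Ldha and Gapdh, high at 36 h, fell by 1.08 and by 0.53 on the log2 scale relative to the median gene. Pygl, the glycogen phosphorylase, was at 298 and 273 FPKM and then at 339 and 174 FPKM, and rose by 2.33 relative to the median gene. Of 31 genes of cholesterol and fatty acid synthesis all 31 fell on the deposited scale, and 6 rose and 14 fell relative to the median gene, with a median of -0.285 that became 0.0702 without the first library of 36 h and -0.0748 without the second of 96 h. Scd1, the stearoyl-CoA desaturase, was at 28.8 and 33.5 FPKM and then at 1.33 and 0.265 FPKM. Of 11 genes of heme synthesis 10 fell on the deposited scale, and 2 rose and 8 fell relative to the median gene.

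In the Bcl2 family the Bcl2a1 genes, antiapoptotic members of granulocytes, rose and Bcl2 itself fell. Bcl2a1b was at 12.2 and 2 FPKM and then at 59.4 and 28.9 FPKM, and Bcl2a1a and Bcl2a1d, its near-identical copies, had similar values, so that the split between them is uncertain. Mcl1, on which neutrophil survival depends, was at 140 and 142 FPKM and then at 95.9 and 56.3 FPKM, and rose by 1.62 relative to the median gene without being called on the deposited scale. Bcl2 fell from 9.94 and 18.3 FPKM to 1.01 and 0.532 FPKM. Of the 18 members tested 4 rose and 11 fell on the deposited scale, and 11 rose and 3 fell relative to the median gene. The 4 were the 3 Bcl2a1 genes and the BH3-only gene Bmf.

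Smaller lists were mixed. Of 13 leukotriene and prostaglandin enzymes 3 rose and 7 fell on the deposited scale, and 6 rose and 3 fell relative to the median gene. Alox5ap, which presents arachidonate to 5-lipoxygenase, was at 321 and 371 FPKM and then at 427 and 251 FPKM. Alox5, 5-lipoxygenase itself, was at 123 and 0.99 FPKM at 36 h and at 3.41 and 52.4 FPKM at 96 h, and its fitted change of -0.03 on the deposited scale turned to 2.95 without the first library of 36 h and to 1.77 without the first library of 96 h. Of 30 interferon-stimulated genes tested 4 rose and 18 fell on the deposited scale, and 14 rose and 3 fell relative to the median gene, or 22 and 5 with the median subtracted on the log scale. Ifitm6 rose from 12.4 and 10.4 FPKM to 346 and 181 FPKM, whereas Ifitm1 fell from 4190 and 6230 FPKM to 266 and 126 FPKM. Of 17 genes of the nuclear lamina and envelope 2 rose and 13 fell on the deposited scale, and 8 rose and 3 fell relative to the median gene. Lbr, the lamin B receptor that is needed for the segmented nucleus, was at 177 and 212 FPKM and then at 86.4 and 28.9 FPKM, and rose by 0.62 relative to the median gene. Syne1, a nesprin, rose from 0.216 and 0.214 FPKM to 6.85 and 3.09 FPKM.

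The labels name myeloid cells and no lineage, and markers of the neutrophil were looked at first. Of 11 tested neutrophil markers 8 rose on the deposited scale and 10 relative to the median gene, and 0 fell, and their share of the summed FPKM went from 0.167 and 0.067% to 21.4 and 29.3%. Ly6g was not listed. Many of these markers are also on the granule list. Eosinophil markers rose too. Prg2, the eosinophil major basic protein, went from 49.2 and 5.8 FPKM to 1970 and 933 FPKM. Epx, eosinophil peroxidase, went from 3.13 and 1.53 FPKM to 153 and 49.1 FPKM. Prg3 went from 10.7 and 0.871 FPKM to 96.4 and 36.4 FPKM. Of the 4 markers tested 3 rose on the deposited scale and all 4 relative to the median gene, and their share went from 0.0057 and 0.00111% to 0.496 and 0.447%, whereas Il5ra and Ccr3, the defining receptors, stayed under 0.5 FPKM in all 4 libraries. Transcripts of eosinophil granule proteins thus rose beside those of neutrophils, and the part of eosinophil-like cells in the rise of any gene on the other lists was not tested.

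Markers of other lineages were mixed. Of 13 monocyte and macrophage markers 6 passed the filter, and 3 rose and 1 fell on the deposited scale, and 4 rose and 0 fell relative to the median gene. Csf1r was at 3.62 and 0.473 FPKM and then at 7.17 and 13.5 FPKM, while C1qa, C1qb, C1qc and Cx3cr1 stayed under 1 FPKM. Cd74, 1 of 3 dendritic cell markers tested, was at 0.551 and 0.234 FPKM and then at 2.67 and 12 FPKM. Csf1r, Cd74 and Clec4n were all higher in the second library of 96 h, as was Tpsb2, a mast cell tryptase, at 0.692 and 0.189 FPKM and then at 4.2 and 19.6 FPKM. Of 5 tested basophil and mast cell markers 1 rose and 3 fell on the deposited scale and 2 rose and 0 fell relative to the median gene, and Cpa3, carboxypeptidase A3, was at 2010 and 554 FPKM and then at 159 and 155 FPKM. Both tested erythroid markers and all 4 tested megakaryocyte markers fell on the deposited scale, as most genes did. Relative to the median gene neither erythroid marker was called, and 1 megakaryocyte marker rose and 1 fell. Cd3d, a T cell receptor chain, was at 0.203 and 0.276 FPKM and then at 9.11 and 3.51 FPKM, and rose, whereas the T cell kinase Lck fell from 4.75 and 4.82 FPKM to 0.258 and 0.069 FPKM. Ebf1, a B cell factor, fell from 7.15 and 44.8 FPKM to 0.216 and 0.0434 FPKM. The part of these cells in the results was not tested. At 36 h the first library was the higher in Prg2, Cpa3, Csf1r, Alox5 and Ccl6, and the second in Cd34, Flt3, Ebf1 and Cdkn2c.

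**Figure D5:**
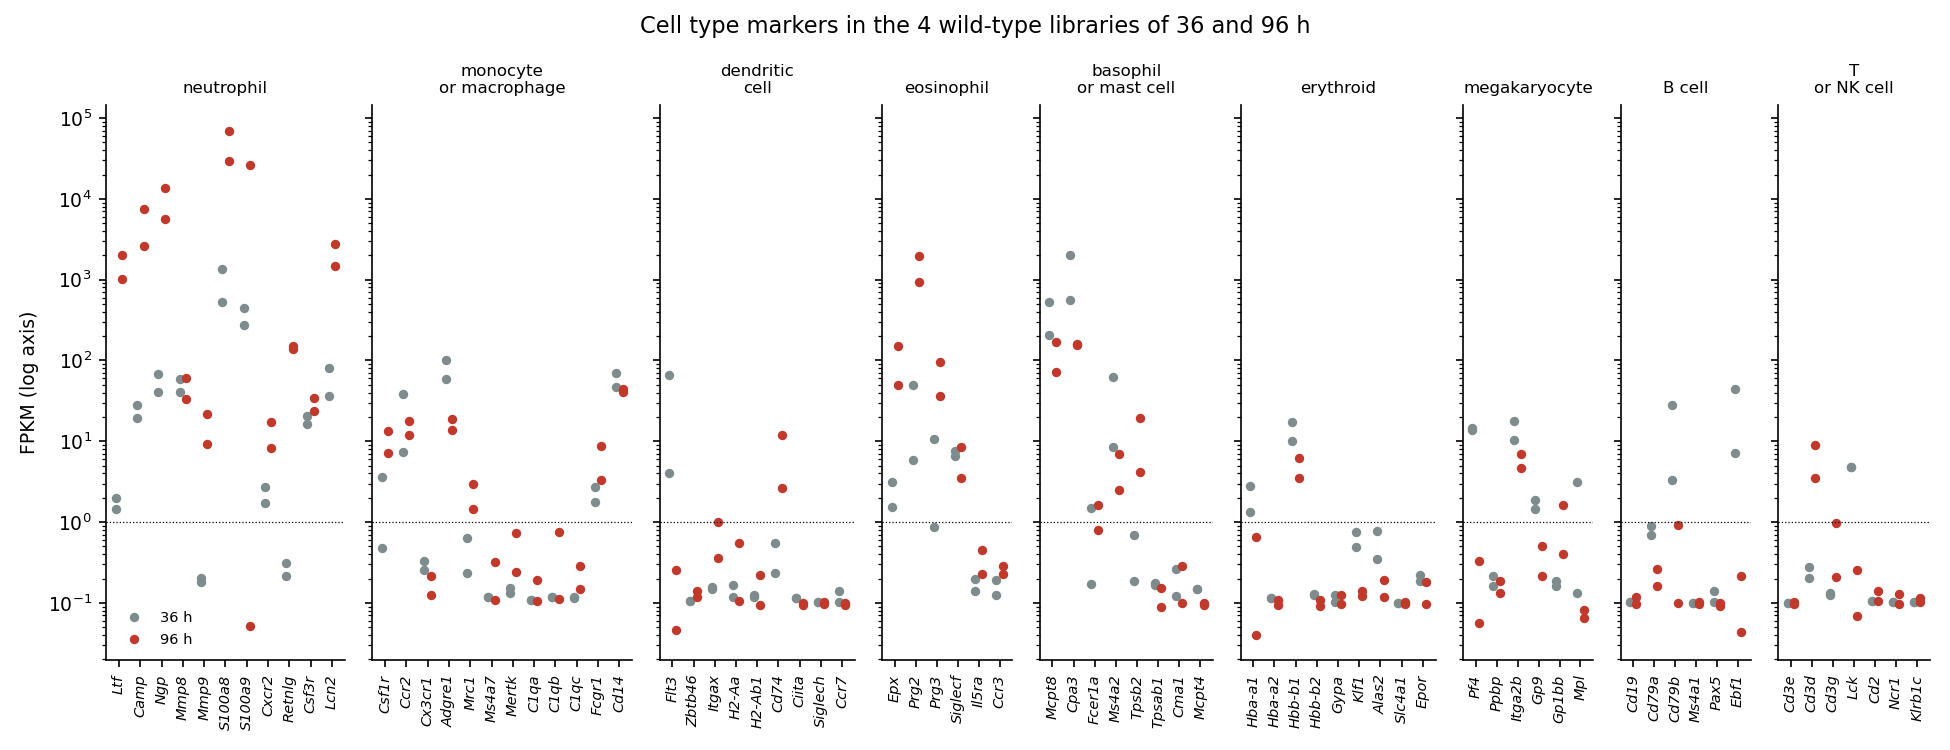
FPKM (log axis) of markers of 9 cell types in the 4 wild-type libraries of 36 h (grey) and 96 h (red); each point is 1 library and the dotted line is 1 FPKM. The eosinophil granule genes Epx, Prg2 and Prg3 and 8 of 11 neutrophil markers rose on the deposited scale, S100a9 is at 0.0511 in 1 library of 96 h, and 7 of 9 erythroid and 5 of 7 T or NK cell markers lie under 1 FPKM in each library.

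The late step differed from the early one. The median gene changed by 0.47 (log2) from 0 to 36 h and by -2.21 from 36 to 96 h, and the 2 steps share the libraries of 36 h. On the deposited scale 71 genes (0.617%) were called from 0 to 36 h, against 10303 (89.5%) from 36 to 96 h. In the test of the difference of the 2 changes, 9564 genes (83.0%) were called, 200 with a higher (1.74%) and 9364 with a lower late change (81.3%), and on the median-centred scale 5529 (48.0%), 2365 higher (20.5%) and 3164 lower (27.5%). Without the second wild-type library of 36 h the lower count on the deposited scale was 4912, and the centred counts were 1370 and 2032. The largest differences on the deposited scale were Stfa3 at 13.28, BC117090 at 11.30, Ltf at 11.19, Stfa2l1 at 11.04 and BC100530 at 10.96, and in the other direction Mpo at -8.28, Ctsg at -7.71, Igfbp7 at -6.93, Thy1 at -6.92 and Fkbp11, an endoplasmic reticulum prolyl isomerase, at -6.72. Mpo was at 2110 and 4410 FPKM at 0 h, and its change from 0 to 36 h was called on neither scale. All 27 tested genes of the secondary and tertiary granule list, stefins included, were called as higher in the late step on the median-centred scale, and 67 of the 68 nucleolar genes as lower.

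The same step in HMGN1-OE cells had a smaller common drop. The median gene changed by -1.33 (log2) there, and the difference of the step between the genotypes was 0.92 at the median. This difference was 1.36 without the first wild-type library of 96 h and 0.475 without the second. On the deposited scale 63 genes (0.547%) were called for this difference, 45 less reduced or more raised in HMGN1-OE cells (0.391%) and 18 the reverse (0.156%), and 520 genes had an unadjusted p under 0.05. On the median-centred scale 3 genes (0.0261%) were called, 1 in the first direction (0.00868%) and 2 in the other (0.0174%), and 834 had an unadjusted p under 0.05. The deposited counts of 45 and 18 became 6 and 1 without the intensity trend and 1 and 1 without moderation, and the centred counts of 1 and 2 became 19 and 80 without the first wild-type library of 96 h. Mpo was at 4150 and 2450 FPKM at 36 h and at 114 and 406 FPKM at 96 h in HMGN1-OE cells. In wild-type cells it was at 116 and 13.5 FPKM at 96 h, so the genotypes overlapped there. The difference of Mpo between the steps was 3.36 on the deposited scale (limma, Benjamini-Hochberg adjusted p = 0.0237). It was 2.30 on the median-centred scale, where it was not called (0.661). Mpo was not among the genes checked for this difference without single libraries. Stfa3 reached 907 and 612 FPKM, Ltf 1210 and 856 FPKM and Camp 3820 and 5110 FPKM at 96 h in HMGN1-OE cells, and the step of none of these was called as different between the genotypes. A p above the threshold does not show that the steps were alike.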

How the data were processed

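RNA-seq was deposited for 12 libraries, 2 in each of 6 groups, 2 genotypes at 0, 36 and 96 h. The authors deposited 1 table of FPKM normalized to ERCC spike-ins by a loess fit. Per the labels, the submitters' processing notes name mm9, HISAT and Cufflinks 2.0.0, while the study's methods name Bowtie, so the aligner is uncertain. Depth is unknown, and no column of values was left unused (0).

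Genes reaching 1 FPKM in 2 or more libraries were kept. limma 3.58.1 in R 4.3.3 with an intensity trend was fitted to log2(FPKM + 1) of all 12 libraries with 6 group means, on the deposited values and again after scaling each library to an equal median over these genes. Contrasts were 96 against 36 h in wild type, its difference from 0 to 36 h and from HMGN1-OE cells. P-values were adjusted by Benjamini-Hochberg and called under 0.05. The prior degrees of freedom were infinite on the deposited scale, so the p-values there take no account of a gene's own spread, and 2.37 on the median-centred scale. Exact tests of 2 against 2 libraries cannot go below p = 0.33. The code was tested on simulated data. Figures used Python 3.11.15 with matplotlib 3.10.9.

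The members, gene lists and tests were chosen with earlier results of these data known. Genes named were the 10 largest changes in each direction on each scale among called genes whose times did not overlap, with a mean of at least 5 FPKM at the higher time and no placeholder or small RNA name, up to 6 of each list with the largest called median-centred changes, all members of small lists and markers, the 5 largest in each direction of the other contrasts under the same filters, and Hmgn1, Hoxb8, Hoxa7 and Hoxa9. All other genes named were chosen after their values were seen. Some genes that these rules name are counted in their lists but not reported here. Whether same-numbered libraries were paired could not be read from the columns, whose digits match no replicate number. Alternatives were another pseudocount (0.1), no filter, a mean of at least 5 FPKM, other variance settings, fewer groups, subtraction of the median on the log scale, and each of the 4 wild-type libraries of 36 and 96 h left out in turn. No HMGN1-OE or 0 h library was left out.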

Additional observations from a re-analysis of the deposited data

Results flagged for a closer look

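The change from 36 to 96 h was called as different between HMGN1-OE and wild-type cells for 63 genes on the deposited scale and for 3 genes on the median-centred scale (limma, interaction contrast, Benjamini-Hochberg adjusted p under 0.05). The 3 were Mir3074-1, higher in HMGN1-OE cells, and Mir425 and Rnf144a, lower.

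The named genes with the largest differences on the deposited scale are given with their libraries. For S100a9 the difference was 11.1 (log2). HMGN1-OE cells had 158 and 19.4 FPKM at 36 h and 51900 and 73500 FPKM at 96 h, and wild-type cells had 0.0511 FPKM in the first library of 96 h and 26500 in the second. For Ndufs5, a subunit of respiratory complex I, it was 4.24, with 42.3 and 64.5 FPKM at 36 h in wild-type cells against 4.62 and 0.151 FPKM in HMGN1-OE cells, and 5.17 to 7.07 FPKM in all 4 libraries of 96 h. For Gpx8 it was 3.78. It was at 51.3 and 55.1 FPKM at 36 h in wild-type cells and at 2.68 and 3.25 FPKM in HMGN1-OE cells, and near the floor at 96 h in both. For BC064078 it was 3.62, with 186 and 149 FPKM at 36 h and 17.4 and 3.8 FPKM at 96 h in wild-type cells, against 1.31 and 0.814 FPKM and 0.565 and 0.282 FPKM in HMGN1-OE cells.

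For Rpl26 the difference was 3.74, its libraries of 96 h being at 0.0577 and 0.0285 FPKM in wild-type cells and at 1.71 and 2.94 FPKM in HMGN1-OE cells. AF357399 had a difference of -2.19, from 1 wild-type library of 96 h at 22 FPKM, all others at these times being at 0.0932 to 0.126 FPKM. Mmp9 had a difference of -2.07, with 3.8 and 1.75 FPKM at 96 h in HMGN1-OE cells against 9.25 and 21.7 FPKM. On the median-centred scale none of these 7 genes was called, with adjusted p-values (limma, Benjamini-Hochberg) of 0.393 for Gpx8 to 0.75 for AF357399. Causes were not tested.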

How the results depend on the processing

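The deposited scale called 363 genes as higher and 9940 as lower from 36 to 96 h, and leaving out 1 of the 4 wild-type libraries of 36 and 96 h at a time, as in every such range here, gave 275 to 387 and 8816 to 10217. A mean of at least 5 FPKM gave 155 higher. With only the wild-type libraries of 36 and 96 h in the fit, 305 were higher and 9355 lower. The median-centred scale then gave 2776 and 3547. The median change of -2.21 ran from -2.65 to -1.78 without single libraries and was -0.173 with no filter, which adds silent genes. The median-centred counts, 3646 higher and 4422 lower, ran from 3156 to 3595 and from 4006 to 4258 without single libraries, and no filter gave 11205 and 8005. Subtracting the median on the log scale gave 4402 and 3880, so 53.2% of the called genes were higher in place of 45.2%. Quantile normalization, an upper quartile factor and the subtraction left the sign of the median of each list as it was, except that of the megakaryocyte markers, which was -0.137 and became 1.26 with the subtraction. With the column digits as a replicate block, chosen after seeing the data, 195 and 6088 genes were called on the deposited scale and 2025 and 2680 on the median-centred one. Deviations of equal digits had r = -0.241 over 8658 genes, and the crossed replicate block gave 337 and 9565, and 2918 and 3535. The digits are not known to pair libraries.

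No HMGN1-OE or 0 h library was left out. In the comparison of the step between the genotypes on the deposited scale, the 45 higher genes became 2 with no filter, 6 without the trend, 9 with a robust fit, 1 without moderation and 30 to 87 without single libraries, and the 18 lower became 5, 1, 4, 1 and 15 to 31, and 10 at a mean of at least 5 FPKM. On the median-centred scale the 1 higher gene became 2 with a pseudocount of 0.1, 2 with no filter, 3 with only the libraries compared and 1 to 19 without single libraries. The 2 lower genes became 1 with a pseudocount of 0.1, at a mean of at least 5 FPKM, without moderation or with the median subtracted, 8 with no filter, 4 with only the libraries compared and 2 to 80 without single libraries, the 19 and 80 being without the first library of 96 h in wild-type cells. For the difference between the late and the early change, 200 higher and 9364 lower genes on the deposited scale became 139 to 243 and 4912 to 9988 without single libraries, and 95 higher at a mean of at least 5 FPKM. The 2365 higher and 3164 lower genes on the median-centred scale became 1370 to 2663 and 2032 to 3341, 9629 and 6474 with no filter and, for the higher, 1472 with only the libraries compared. The values 4912, 1370 and 2032 were without the second library of 36 h in wild-type cells.

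Of the genes named and called with or without the library left out, these changed direction without single libraries. Sign changes of genes called in neither fit are not listed. On the deposited scale Alox5 ran from -3.01 to 2.95 (2.95 without the first library of 36 h, 1.77 without the first of 96 h), Hoxa9 from -2.55 to 0.24 (0.24 without the second of 36 h), S100a9 from -8.38 to 6.25 (6.25 without the first of 96 h), and AF357399, in the difference between genotypes, from -4.38 to 0.0054 (0.0054 without the second of 96 h). On the median-centred scale Alas1 ran from -0.525 to 0.449 (0.449 without the first library of 36 h), Ms4a2 from -1.38 to 1.47 (-1.38 without the second of 36 h) and S100a9 from -7.25 to 9.41 (-7.25 without the second of 96 h). The cause was not tested. With 2 libraries a group and unknown depth, differences between genes of low level cannot be resolved.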
